A study of Mus musculus with 10 samples.

Results

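The RUNX factors and their cofactors are 7 of the 55276 genes measured in sorted epithelial cells of the corpus, the main body of the mouse stomach with its acid glands. They were chosen by symbol and comprise the DNA-binding factors Runx1, Runx2 and Runx3, their shared partner Cbfb, and the corepressors Runx1t1, Cbfa2t2 and Cbfa2t3. Cells came from C57BL/6 mice aged 6 to 8 weeks that were either Runx3 R122C;Iqgap3-2A-tdTomato or Runx3 WT;Iqgap3-2A-tdTomato. R122C is an arginine-to-cysteine change in RUNX3, and the reporter, carried by both genotypes, couples red fluorescent tdTomato to expression of Iqgap3, a scaffold protein. Living EpCAM-positive cells were sorted by tdTomato into an Iqgap3-high fraction (IQ3pos) and one with low Iqgap3 or none (IQ3neg). The groups, 4 in all, were R122C IQ3pos and R122C IQ3neg, with 2 libraries each, and WT IQ3pos and WT IQ3neg, with 3 libraries each. Every library was made from pooled animals, 3 mice in each case apart from the WT replicate 2 pair, where 4 were pooled. The series asks, by its title, how the R122C change affects the multiplication and maturation of stem cells in the isthmus of the gland.

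RUNX proteins bind DNA through the Runt domain and gain affinity and stability by pairing with CBFβ, the product of Cbfb, which does not itself touch DNA. The ETO or MTG family, to which Runx1t1, Cbfa2t2 and Cbfa2t3 belong, does not bind DNA on its own. It bridges transcription factors to histone deacetylases, and its first member was found as the fusion partner of RUNX1 in acute myeloid leukaemia. In the stomach RUNX3 has been studied as a tumour suppressor, how far normal gastric epithelium expresses it has been debated, and an enhancer of Runx1 has been used to mark isthmus and chief cells of the mouse corpus.

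The 3 RUNX genes share a short stretch at their distal promoter, the upstream one of the start sites from which these genes are transcribed, and it is shown because all 3 hold it and none of the cofactor windows examined does. In the RefSeq promoter windows (GRCm38.p6, 250 bases before to 50 after a start site), each of the 3 held a pair of copies of ACCACA, the reverse complement of the RUNX recognition core TGTGGT, in the same orientation with 2 bases between them. The windows below run 5′ to 3′ on the gene's strand, and the capitals mark the copies.
Runx1, chr16:92826025-92826054, minus strand: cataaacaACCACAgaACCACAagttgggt
Runx2, chr17:44814583-44814612, minus strand: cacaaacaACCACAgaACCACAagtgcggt
Runx3, chr4:135120503-135120532, plus strand: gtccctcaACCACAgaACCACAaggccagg

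Counted from the annotated start site, the pair began at base 29 in Runx1, at base 24 in Runx2 and at base -134, upstream of it, in Runx3. A single TGTGGT or ACCACA, searched on both strands, was found in 5506 of 32851 windows (16.8%), whereas the spaced pair was found in 7 windows (0.0213%). Those 7 windows belonged to Runx1, Runx2, Runx3, Gm12236, Gm15462, Olfr24 and Gm16225, the last of which lies on the opposite strand and overlaps the same stretch as Runx3. No copy was found in the proximal windows of Runx1 and Runx3 or in the windows of Cbfb, Cbfa2t2 and Cbfa2t3. The promoter of Runx1t1 was not examined. A match describes the letters only.

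The arginine codon of Runx3 nearest to the residue number in the allele's name, R122C, is shown as the candidate for the change. In the shorter of the annotated transcripts of GENCODE M21, which encodes 409 residues, the residue of that number is a leucine (CTG), and the next codon, residue 123 in exon 2, is an arginine.
Runx3, chr4:135155333-135155395 (GRCm38), plus strand: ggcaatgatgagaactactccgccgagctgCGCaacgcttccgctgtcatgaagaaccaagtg
The capitals mark that arginine codon, at chr4:135155363-135155365. In the longer transcript, of 423 residues, the same codon is residue 137 in exon 3, and the residue with the allele's number is a valine (GTG). The labels do not say which numbering the allele's name follows, and so which codon it changes.

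Values are log2 CPM as deposited, reads scaled to a total set for each library. Any gene below 1 CPM is listed at 0, so that a listed 0 is not a count of 0. Library totals ran from 47.4 M to 264.8 M reads, and 1 CPM therefore stood for 47.4 to 264.8 reads. A member's listed value rested on at least 211 reads, and its Wilson 95% interval was at most 0.39 wide on the log2 scale, which covers counting error only. WT IQ3neg replicate 1 stood apart from the other libraries: Epcam, which defines the sort, was at 7.64 log2 CPM there, and between 8.74 and 9.25 in the other 9. Its results are given with and without it where they turned on it. Krt8, a keratin of simple epithelia, was at 8.39 log2 CPM in that library, and between 9.74 and 11.12 in the other 9. Its 11 myeloid and mast cell markers summed to 496.9 CPM, the highest of the series, beside 401.9 in WT IQ3pos replicate 1. These 2 libraries also had the lowest scaling totals, 59.3 M and 47.4 M. Epcam and Krt8 were listed in all 10 libraries. Iqgap3 itself was listed in R122C IQ3pos replicate 1 (2.28 log2 CPM), R122C IQ3neg replicate 1 (0.22) and WT IQ3pos replicate 2 (3.16), and at 0 in the other 7 libraries, so its own level did not separate the fractions.

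**Figure D1:**
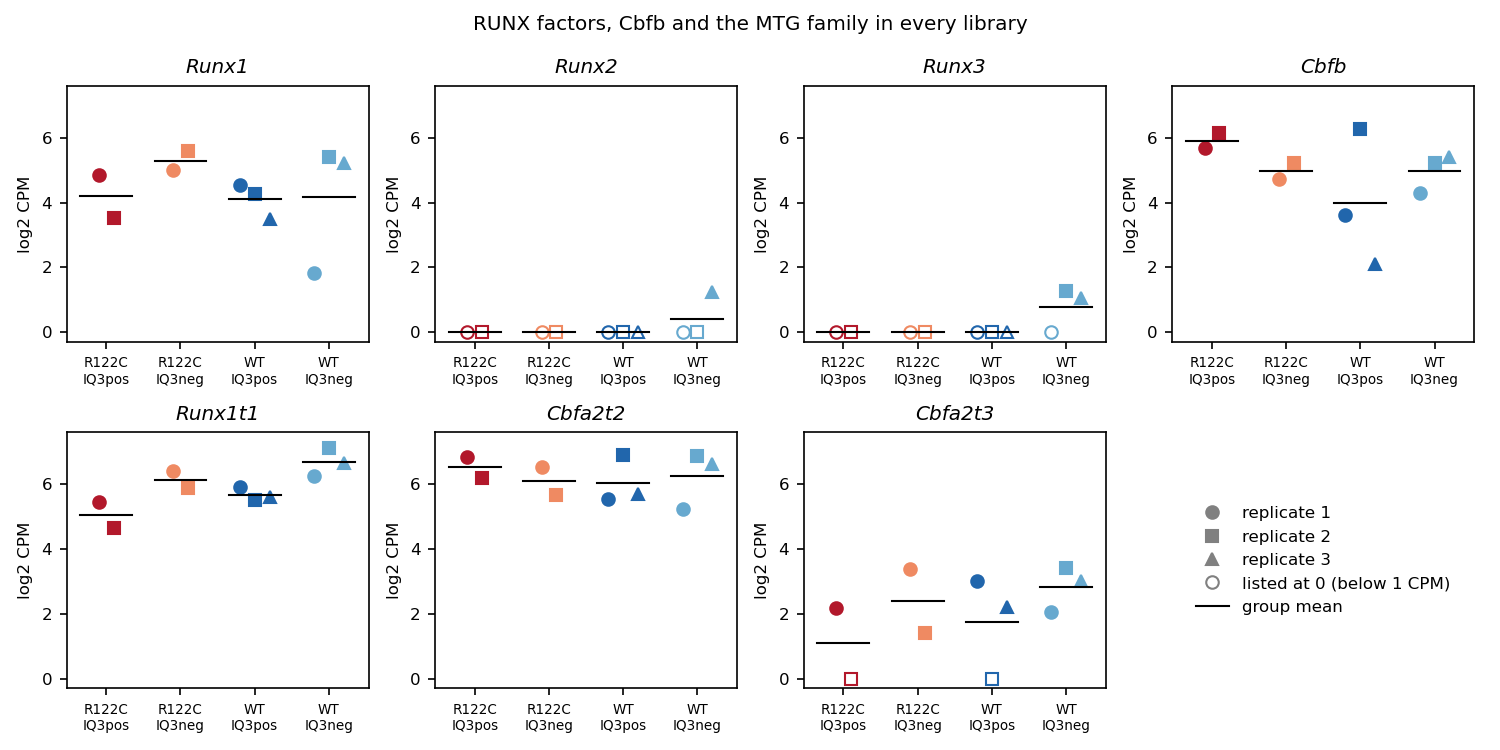
Level of each member in log2 CPM (vertical axes) in every library, by group, with replicates as symbols, the group mean as a bar and open symbols for values listed at 0. Runx2 and Runx3 were listed at 0 in 9 and 8 of 10 libraries, whereas Runx1, Cbfb, Runx1t1 and Cbfa2t2 were listed in all 10.

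Runx3, the gene that carries the change, was near or under the lowest listed level in all of these cells. It was listed at 0 in both R122C IQ3pos, both R122C IQ3neg and all 3 WT IQ3pos libraries. In WT IQ3neg it was at 0, 1.27 and 1.05 log2 CPM in replicates 1, 2 and 3, which stood for 315 reads in replicate 2 and 411 in replicate 3. The 2 listed values were thus both in WT IQ3neg, just above the floor. A gene had to be listed in at least 2 libraries to be tested, and Runx3 was tested through these 2 values alone. The other groups were all at 0, without spread, so its differences and p-values depend on the floor and are no support for a difference. With a listed 0 taken as a value, the WT fractions differed by -0.77 ± 0.35 (SE; adjusted p = 0.265), and R122C IQ3neg differed from WT IQ3neg by -0.77 ± 0.39 (adjusted p = 1). No fold is given, since both groups held libraries under the floor. With no listed value in any R122C library and no base calls in the table, the genotype could not be checked on the transcript.

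Runx3 is known as a factor of T, natural killer and innate lymphoid cells, and the levels of their markers are given beside it. Of 13 such markers, 0 to 1 were listed per library in R122C IQ3pos, 0 to 1 in R122C IQ3neg, 0 to 2 in WT IQ3pos and 3 to 6 in WT IQ3neg. Their summed level was at most 4.05 CPM in R122C IQ3pos, 4.93 in R122C IQ3neg and 4.89 in WT IQ3pos, and 5.402 to 29.1 in WT IQ3neg. The highest sum, 29.1 CPM with 6 markers listed, was in WT IQ3neg replicate 1, where Runx3 was at 0. In replicates 2 and 3, where Runx3 was listed, 3 markers summed to 9.71 and 5.402 CPM. Of the defining T cell genes, Cd3e was at 0 in every library. Cd3d was at 1.98 log2 CPM in WT IQ3neg replicate 1 and at 0 in the others. Fewer cells of a type and less RNA per cell cannot be told apart in bulk samples, and the part of these cells in the Runx3 values was not tested.

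Runx2, the factor best known for bone formation, was listed in 1 library, WT IQ3neg replicate 3, at 1.23 log2 CPM (467 reads), and at 0 in the other 9. It was too rarely listed to be tested. The listed values of both genes lay in WT IQ3neg replicates 2 and 3, which also listed the most genes of all, 14686 and 14811, against 11879 to 14163 in the other 8 libraries. Of the 1822 genes listed in 2 libraries, 4.67% were listed in that pair, as Runx3 was, and of the 4333 genes listed in 1 library, 7.69% were listed in WT IQ3neg replicate 3, as Runx2 was.

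Runx1, the factor best known from blood stem cells, was the RUNX gene of both fractions. It had 4.85 and 3.53 log2 CPM in R122C IQ3pos and 4.99 and 5.60 in R122C IQ3neg. In WT it had 4.56, 4.28 and 3.51 log2 CPM in IQ3pos, and 1.83, 5.42 and 5.23 in IQ3neg. In R122C, with 2 libraries per fraction, the highest IQ3pos value (4.85) was close to the lowest IQ3neg value (4.99). The WT fractions overlapped through the 1.83 of WT IQ3neg replicate 1. None of the Runx1 differences passed: IQ3pos differed from IQ3neg by -1.11 ± 1.07 in R122C (SE; adjusted p = 0.846) and by -0.05 ± 0.88 in WT (adjusted p = 0.992). Without WT IQ3neg replicate 1, the WT difference was -1.21, and it did not pass there either. Genotype made a difference of 0.08 ± 0.98 in IQ3pos, with a 95% interval of -2.06 to 2.21, and of 1.14 ± 0.98 in IQ3neg, with an interval of -0.998 to 3.27 (adjusted p = 1 in both). The IQ3neg value was -0.03 when the WT replicate 1 pair was left out.

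Per kilobase of exon, Runx1 made up all of the listed RUNX RNA in 8 libraries. Runx2 and Runx3 were under the floor there and were counted as 0, so this share is an upper bound. In WT IQ3neg replicate 1, Runx1 was at -1.76 log2 RPKM (CPM per kilobase of exon), near the Runx3 floor of -2.32. Runx1 made up 88.1% in WT IQ3neg replicate 2 and 82.2% in WT IQ3neg replicate 3, where Runx2 or Runx3 was listed. Its spread over the 10 libraries, an SD of 1.15 on the log2 scale, was larger than that of 86.7% of the 7404 genes listed in all libraries, whose median SD was 0.75. Without WT IQ3neg replicate 1 its SD was 0.77, larger than that of 67.02% of those genes, whose median was then 0.63. The 3 genes whose log2 CPM ran closest to that of Runx1 over the 10 libraries were Hbp1, an HMG-box repressor of the cell cycle (r = 0.952), Plpbp, a vitamin B6-binding protein (0.942), and Setd3, an actin methyltransferase (0.933). These libraries share group and depth differences, so r describes them only.

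Cbfb, the beta subunit, was listed in all 10 libraries and varied most in WT IQ3pos. It had 5.68 and 6.14 log2 CPM in R122C IQ3pos, and 4.74 and 5.22 in R122C IQ3neg. In WT IQ3pos it had 3.62, 6.27 and 2.11 log2 CPM, and in WT IQ3neg 4.29, 5.21 and 5.42. WT IQ3pos thus held both the highest and the lowest Cbfb value of the series, 4.16 log2 units apart, and the R122C IQ3pos values lay between them. The SD over all libraries, 1.26, was above that of 91.1% of the 7404 genes.

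In IQ3pos, Cbfb averaged 5.91 ± 0.33 log2 CPM in R122C (SD, n = 2) and 4.00 ± 2.11 in WT (SD, n = 3). The difference of 1.91 ± 0.95 (SE; 95% interval -0.16 to 3.98) had an unadjusted p of 0.0669 in limma's moderated test and did not pass (adjusted p = 0.911). It was 0.97 without WT IQ3pos replicate 3 and 3.05 without WT IQ3pos replicate 2. The titles carry a code whose meaning the labels do not give, and R122C replicate 1 and WT replicate 2 are the only libraries that share it across genotypes. Between them Cbfb was 0.60 lower in R122C IQ3pos (-0.60), against the direction of the pooled difference, and 0.47 lower in R122C IQ3neg (-0.47). Between fractions, the Cbfb difference was 0.93 ± 1.04 in R122C and -0.97 ± 0.85 in WT (SE; adjusted p = 0.877 and 0.563). The opposite signs were not shown to differ, with an interaction of 1.91 ± 1.34 (adjusted p = 1).

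**Figure D2:**
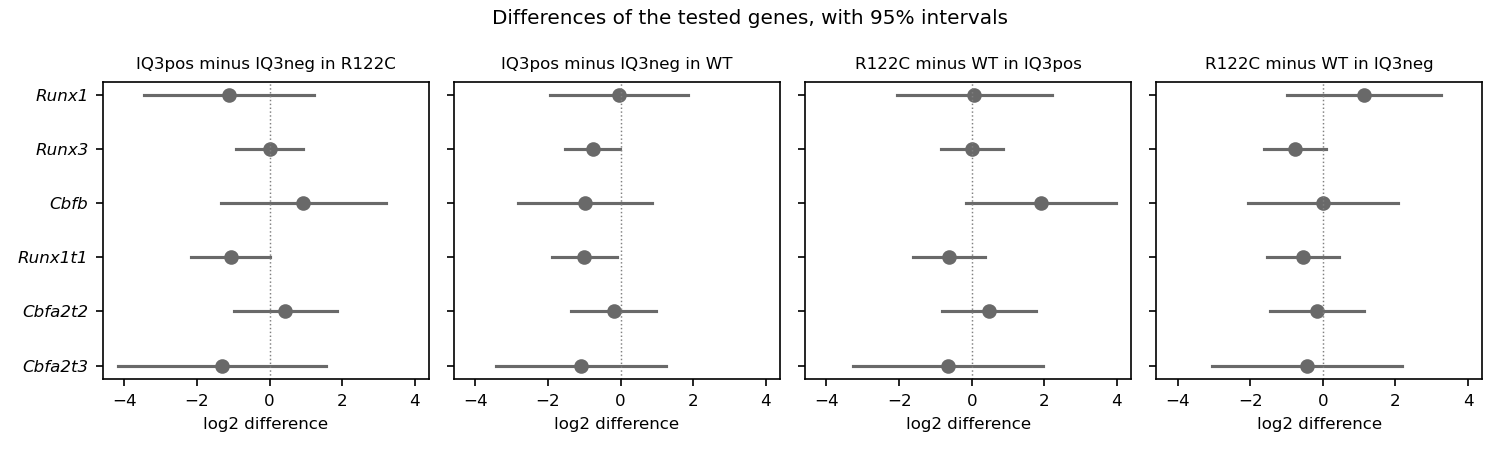
Difference in log2 CPM (horizontal axes) of the 6 tested members in 4 comparisons, with 95% intervals of limma's fit as lines. The largest difference between genotypes was that of Cbfb in IQ3pos, 1.91, and the Runx1t1 differences between fractions, -1.08 in R122C and -0.996 in WT, had the interval in WT alone clear of 0. The Runx3 interval between the WT fractions, -1.533 to -0.008, was clear of 0 too, but its IQ3pos values were all listed at 0.

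Per kilobase of exon, Cbfb exceeded Runx1 in each of the 10 libraries, by a ratio that ran from 1.31 to 21.2. This order rests on exon unions of 3480 bases for Cbfb and 12025 for Runx1. In CPM, not divided by length, the order varied. Runx1 was higher in WT IQ3pos replicate 3 (11.36 against 4.31) and lower in R122C IQ3pos replicate 2 (11.52 against 70.64). The ratio was 6.12 and 21.2 in R122C IQ3pos and 2.89 and 2.65 in R122C IQ3neg, against 1.80, 13.8 and 1.31 in WT IQ3pos and 19.0, 2.98 and 3.93 in WT IQ3neg. Both very high and very low ratios occurred within WT groups. The genes closest to Cbfb over the 10 libraries were Gosr2, a Golgi transport protein (r = 0.915), Cwc27, a spliceosome protein (0.912), and Smurf2, a ubiquitin ligase known to act on SMAD and RUNX proteins (0.910). Smurf2 averaged 5.14 log2 CPM in R122C IQ3pos, 4.93 in R122C IQ3neg, 3.32 in WT IQ3pos and 4.71 in WT IQ3neg, and it did not pass in any comparison.

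Runx1t1, also called ETO, was lower in IQ3pos than in IQ3neg in every library pair, although no difference passed the test. It had 5.46 and 4.66 log2 CPM in R122C IQ3pos, against 6.40 and 5.88 in R122C IQ3neg. In WT it had 5.93, 5.51 and 5.60 log2 CPM in IQ3pos, against 6.25, 7.11 and 6.66 in IQ3neg. Within each genotype every IQ3pos library was under every IQ3neg library, which also held for 3.89% of the 17155 genes tested. Across the genotypes the groups met, with the highest IQ3pos value (5.93, WT) just over the lowest IQ3neg value (5.88, R122C). Within a title code, IQ3pos was lower by 0.94 and 1.22 in R122C (-0.94 and -1.22), and by 0.32, 1.61 and 1.07 in WT (-0.32, -1.61 and -1.07). The same direction in 5 of 5 pairs of libraries follows from the separation within each genotype and adds nothing to it.

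In R122C, Runx1t1 averaged 5.06 ± 0.56 log2 CPM in IQ3pos and 6.14 ± 0.37 in IQ3neg (SD, n = 2 each), a difference of -1.08 ± 0.50 (SE; 95% interval -2.17 to 0.01; adjusted p = 0.625). In WT it averaged 5.68 ± 0.22 log2 CPM in IQ3pos and 6.67 ± 0.43 in IQ3neg (SD, n = 3 each), a difference of -0.996 ± 0.41 (SE; interval -1.89 to -0.11; adjusted p = 0.223). Averaged over the genotypes, an alternative added after the data were seen, the difference was -1.04 ± 0.32, with an unadjusted p of 0.00748 in limma's moderated test and an adjusted p of 0.0933, where 4.24% of all genes were called. None of these passed the threshold of 0.05. R122C was 0.62 under WT in IQ3pos (-0.62 ± 0.46) and 0.54 under it in IQ3neg (-0.54 ± 0.46), with adjusted p of 0.963 and 1, and the interaction was -0.08 ± 0.65.

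Enteroendocrine cells, the hormone-producing cells of the gland, were among the cell types whose markers were lower in IQ3pos, as Runx1t1 was. Their 12 markers summed to 263.8 to 392.1 CPM in R122C IQ3pos and 11110 to 14910 in R122C IQ3neg, against 313.0 to 605.2 in WT IQ3pos and 11960 to 19890 in WT IQ3neg. Of the 12, 7 fell in IQ3pos of R122C, where 0.291% of all genes fell, and 8 in IQ3pos of WT, where 1.42% fell, and none rose. Markers of tuft cells, the chemosensory cells, summed to 174.2 to 264.8 CPM in R122C IQ3pos and 1020 to 1901 in R122C IQ3neg, against 85.8 to 333.1 in WT IQ3pos and 332.5 to 1956 in WT IQ3neg. The 4 markers of chief cells, the enzyme-secreting cells, summed to 12940 to 13030 CPM in R122C IQ3pos and 38460 to 95420 in R122C IQ3neg, against 10320 to 13060 in WT IQ3pos and 43730 to 58440 in WT IQ3neg. The 6 B and plasma cell markers summed to at most 3.89 CPM in R122C IQ3pos and 288.9 to 317.6 in R122C IQ3neg, against at most 12.8 in WT IQ3pos and 58.2 to 204.8 in WT IQ3neg. The sums of all 4 cell types were thus lower in IQ3pos within R122C, and those of enteroendocrine, chief and B or plasma cells within WT too. The WT tuft cell sums overlapped only through WT IQ3neg replicate 1 (332.5 CPM), just under WT IQ3pos replicate 1 (333.1). WT IQ3neg replicates 2 and 3, at 1956 and 1018 CPM, were above every WT IQ3pos library. The part of these cells in the Runx1t1 values was not tested. The genes closest to Runx1t1 over the 10 libraries were Zbtb20, a zinc finger repressor (r = 0.966), Gm11963 (0.962) and Saraf, a regulator of calcium entry (0.946).

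**Figure D3:**
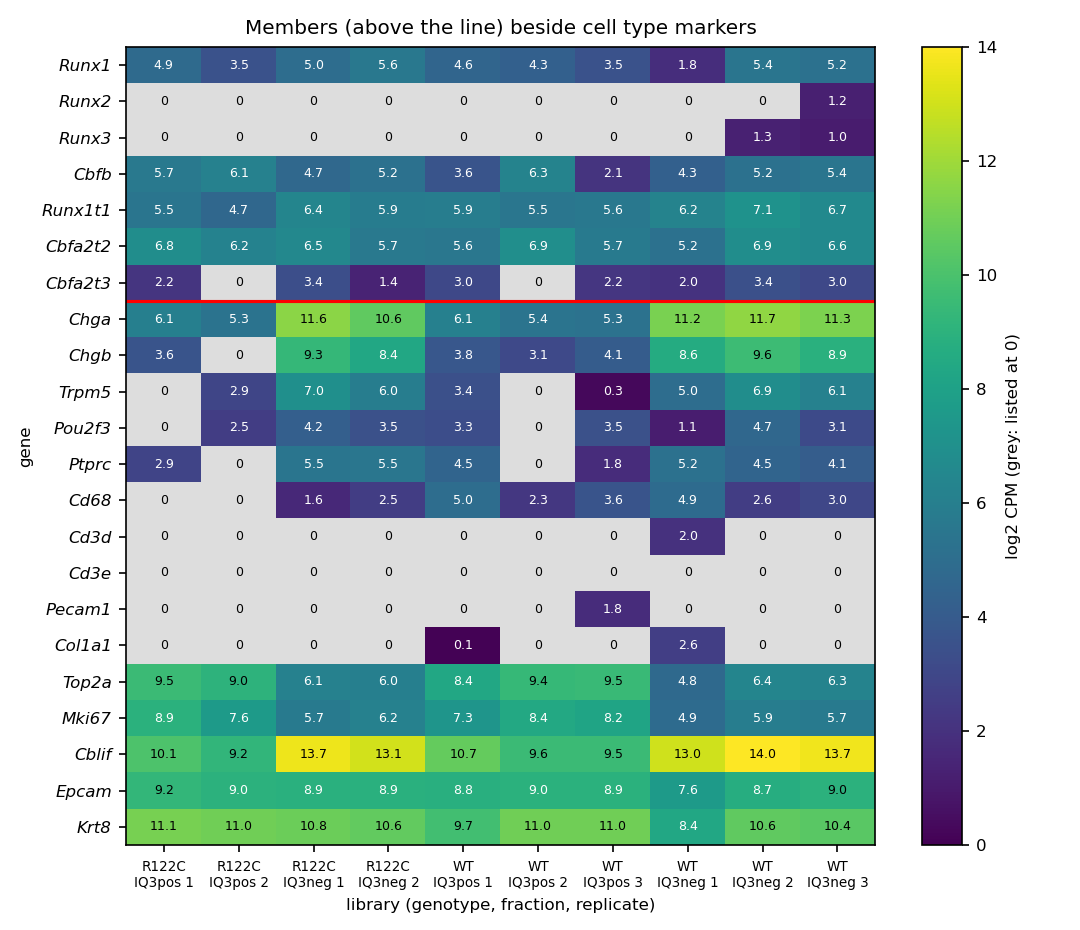
Log2 CPM (colour and printed value) of the 7 members above the line and of cell type markers below it (rows) in each of the 10 libraries (columns), with grey cells for genes listed at 0. Chga and Chgb mark enteroendocrine cells, Trpm5 and Pou2f3 tuft cells, Ptprc and Cd68 leukocytes and macrophages, Cd3d and Cd3e T cells, Pecam1 endothelium, Col1a1 fibroblasts, Top2a and Mki67 dividing cells, Cblif chief cells, and Epcam and Krt8 epithelium. Chga was at 5.3 to 6.1 in IQ3pos and 10.6 to 11.7 in IQ3neg libraries. Cd3e was at 0 throughout, and Cd3d was listed in WT IQ3neg replicate 1 alone (1.98).

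Cbfa2t2, the corepressor also called MTGR1, was the steadiest of the 4 members listed in all libraries. It had 6.84 and 6.21 log2 CPM in R122C IQ3pos, 6.52 and 5.67 in R122C IQ3neg, 5.56, 6.91 and 5.70 in WT IQ3pos, and 5.24, 6.86 and 6.64 in WT IQ3neg. All 4 groups overlapped. Its SD over the libraries, 0.62, was larger than that of 31.0% of the 7404 genes listed throughout. Its differences were 0.43 ± 0.65 between the fractions in R122C and -0.20 ± 0.53 in WT, with 95% intervals of -0.99 to 1.85 and of -1.36 to 0.97. Between genotypes they were 0.47 ± 0.60 in IQ3pos and -0.16 ± 0.60 in IQ3neg, with intervals of -0.83 to 1.77 and of -1.46 to 1.14. The genes closest to it were A630052C17Rik (r = 0.972), Pagr1b, a subunit of a histone methyltransferase complex with a near-identical copy whose reads may be split (0.937), and Uck1, a uridine-cytidine kinase (0.935).

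Cbfa2t3, the corepressor also called ETO2 and best known from blood progenitors, was low and irregular. It had 2.18 and 0 log2 CPM in R122C IQ3pos and 3.38 and 1.42 in R122C IQ3neg, against 3.02, 0 and 2.22 in WT IQ3pos and 2.05, 3.42 and 3.02 in WT IQ3neg. Both values listed at 0 were in IQ3pos, 1 in each genotype. With these taken as values, its fraction differences were -1.31 ± 1.32 in R122C and -1.08 ± 1.07 in WT (SE; adjusted p = 0.854 and 0.616). Ptprc, the leukocyte gene CD45, was at 2.86 and 0 log2 CPM in R122C IQ3pos, 5.46 and 5.47 in R122C IQ3neg, 4.49, 0 and 1.79 in WT IQ3pos and 5.23, 4.53 and 4.14 in WT IQ3neg. The pair of libraries with Cbfa2t3 at 0, R122C IQ3pos replicate 2 and WT IQ3pos replicate 2, also had Ptprc at 0. Other leukocyte markers did not all follow. The 11 myeloid and mast cell markers summed to 24.8 and 13.4 CPM in R122C IQ3pos and to 401.9, 76.5 and 42.1 in WT IQ3pos. WT IQ3pos replicate 2 thus lay above replicate 3, where Cbfa2t3 was listed. The 3 leukocyte markers together summed to at most 7.28 CPM in R122C IQ3pos and 44.5 to 47.6 in R122C IQ3neg, against 3.69 to 26.3 in WT IQ3pos and 19.9 to 52.5 in WT IQ3neg. The part of leukocytes in the Cbfa2t3 and Runx1 values was not tested.

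Per kilobase of exon, the 3 corepressors changed places between libraries. Runx1t1 made up 28.6% and 27.2% of their summed RPKM in R122C IQ3pos and 47.2% and 54.4% in R122C IQ3neg. In WT it made up 54.5%, 29.1% and 48.1% in IQ3pos and 66.2%, 54.1% and 50.5% in IQ3neg. Cbfa2t2 was the larger part in both R122C IQ3pos libraries, at 68.6% and 72.8%, and in WT IQ3pos replicate 2, at 70.9%. Cbfa2t3 made up at most 6.89%. The Runx1t1 share of WT IQ3pos replicate 2, 29.1%, was near those of the R122C IQ3pos libraries. Differences in these shares between fractions or genotypes were not tested.

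**Figure D4:**
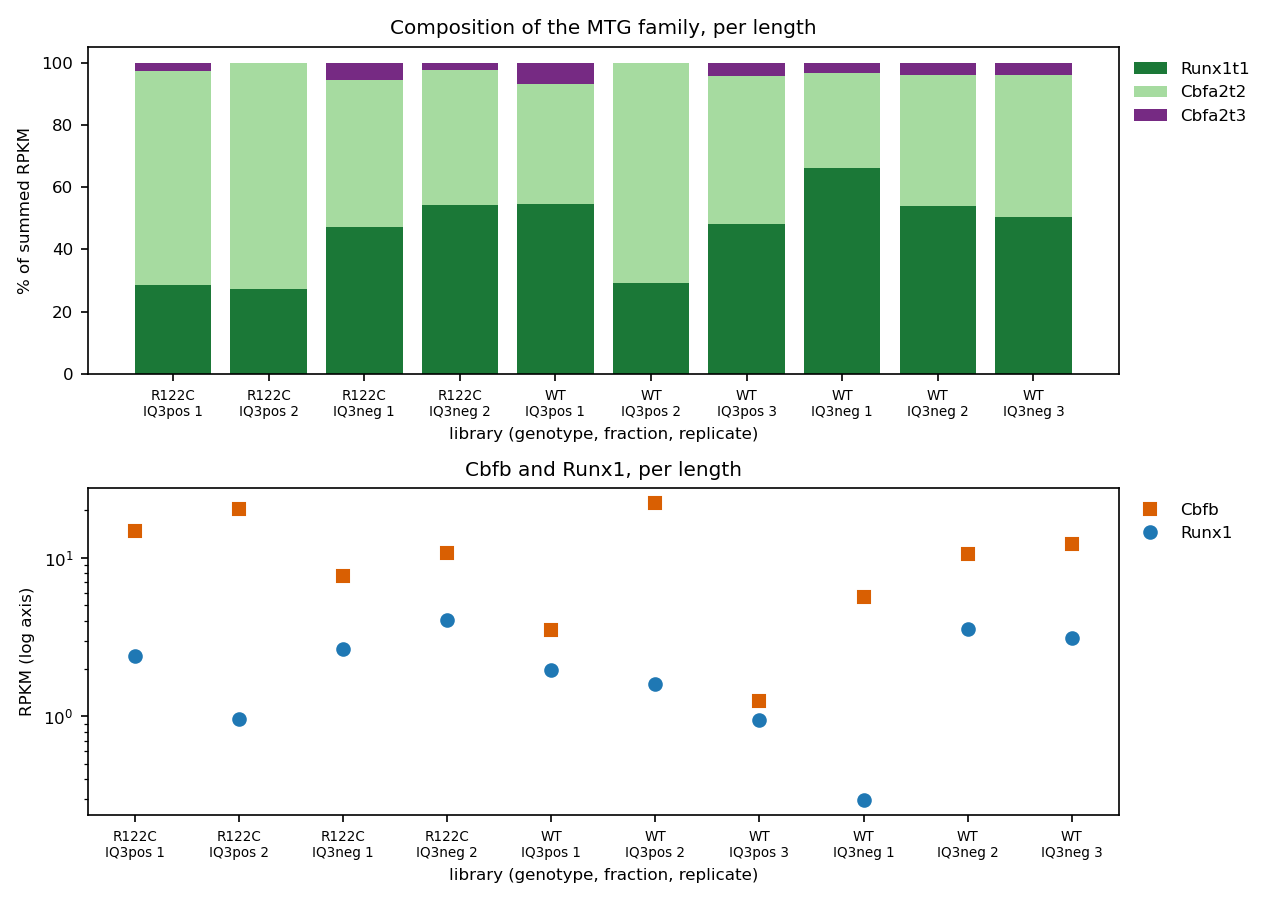
Upper panel, share of each corepressor in the summed RPKM of the 3 (%, bars) by library, and lower panel, RPKM of Cbfb and Runx1 on a log axis. Runx1t1 was 28.6% and 27.2% of the family in R122C IQ3pos and 29.1% in WT IQ3pos replicate 2. Per length, Cbfb lay above Runx1 in all 10 libraries.

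In order of mean level per length over the 10 libraries, Cbfa2t2 came first with 3.10 log2 RPKM, followed by Cbfb with 3.07, Runx1t1 with 2.95 and Runx1 with 0.79. The first 3 lay closer together than the SD of any of them over the libraries. Runx1 stood 2.16 below Runx1t1, more than the SD of either, 1.15 and 0.70. Below them came Cbfa2t3, at most 0.35 log2 RPKM in any library, Runx3, at most -1.06, and Runx2, at most -1.91. Exons of Cbfa2t3, Runx1 and Runx2 overlap an opposite-strand transcript over 295, 106 and 519 bases, but Gm10612 and Runx2os1 were at 0 in every library and Gm26626, the one within Runx1, was at most 1.37 log2 CPM.

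Of the 6 tested members, 0 passed in any of the 5 comparisons. The background was 0.321% of 17155 genes called between the R122C fractions and 2.03% between the WT fractions. Between genotypes and in the interaction 0% of the genes were called by limma, although 930 in IQ3pos, 629 in IQ3neg and 444 in the interaction had an unadjusted p under 0.05. The median member difference between fractions was -0.54 in R122C and -0.87 in WT, beside 0.02 and 0.16 for all genes tested. Of the 6, 2 were above 0 between the R122C fractions and 0 between the WT fractions, beside 50.6% and 56% of all genes tested. Runx3 is among the 6, although its R122C values were all listed at 0 and it was tested through WT IQ3neg alone. The WT signs of Runx1 and Cbfa2t2 changed in fits without 1 library, where their differences reached 0.58 and 0.11. Between genotypes the median was 0.04 in IQ3pos and -0.29 in IQ3neg, beside 0 and 0.07 for all genes.

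The proteins that RUNX and MTG factors work with were examined in 6 lists, and between the WT fractions 5 of their genes passed, where 2.03% of all genes did. Among 17 enzymes reported to modify RUNX proteins or to silence Runx3, 3 rose in WT IQ3pos and 0 fell, where 0.606% of all genes rose. Centring every library on its own median gave 510 higher and 388 lower WT calls over all genes, beside 104 and 244 as deposited. The 3 genes were the mitotic kinases Cdk1 and Aurkb and the histone methyltransferase Ezh2, which are also genes of dividing cells. Cdk1 had 7.29, 8.87 and 8.31 log2 CPM in WT IQ3pos and 2.78, 5.52 and 5.33 in WT IQ3neg, a difference of 3.61 ± 0.66 (SE; adjusted p = 0.0195). Ezh2 had 6.30, 5.89 and 5.21 log2 CPM in WT IQ3pos and 2.60, 1.98 and 3.54 in WT IQ3neg, a difference of 3.09 ± 0.60 (adjusted p = 0.0256). Aurkb had 4.64, 6.35 and 6.93 log2 CPM in WT IQ3pos and 0, 3.22 and 2.73 in WT IQ3neg, a difference of 3.99 ± 0.86 with the listed 0 taken as a value (adjusted p = 0.0374). For all 3 genes every WT IQ3pos library was over every WT IQ3neg library, as for 13.2% of the genes tested.

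The same 3 did not pass between the R122C fractions. There Cdk1 differed by 2.67 ± 0.81 (adjusted p = 0.287), Ezh2 by 1.22 ± 0.74 (adjusted p = 0.735) and Aurkb by 2.65 ± 1.05 (adjusted p = 0.499). The interaction passed for none of them. The 5 markers of dividing cells summed to 1282 to 2121 CPM in R122C IQ3pos and 274.6 to 326.4 in R122C IQ3neg, against 783.8 to 1752 in WT IQ3pos and 84.9 to 236.1 in WT IQ3neg, and their part in the kinase values was not tested. Of the modifiers that did not pass, the RUNX kinases Hipk2 and Pim1 differed by -0.29 ± 0.72 and 0.60 ± 0.55 between the WT fractions.

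**Figure D5:**
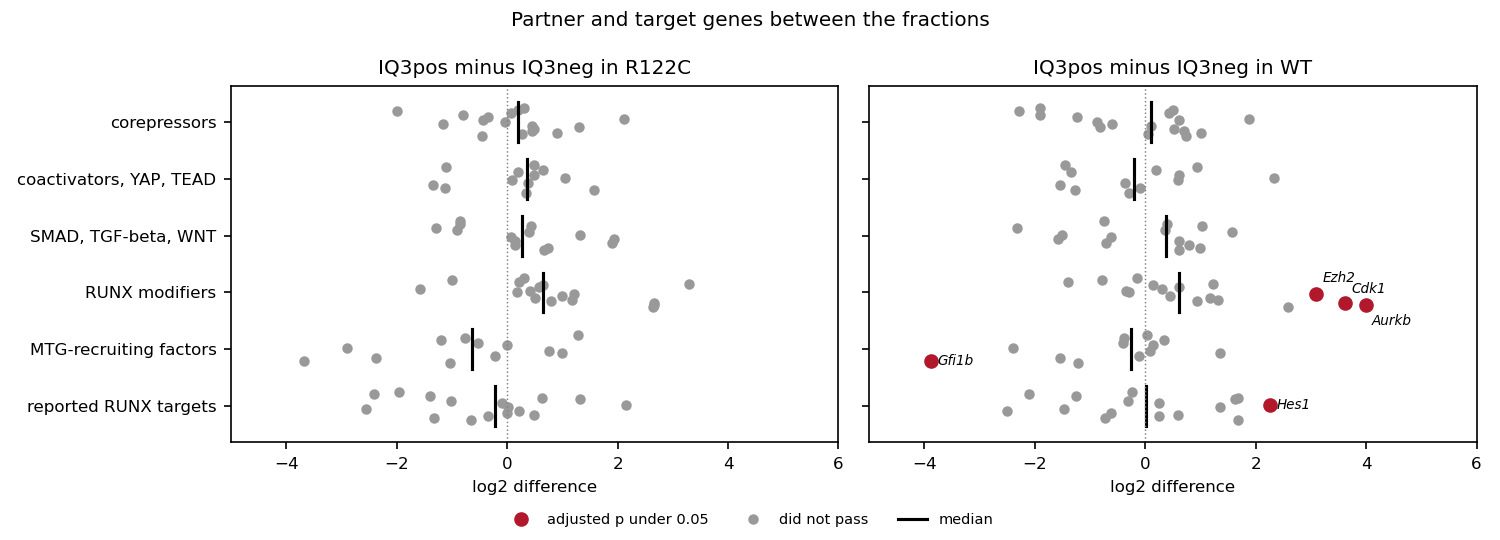
Difference in log2 CPM between IQ3pos and IQ3neg (horizontal axes) of the tested genes of 6 partner and target lists, in R122C (left) and WT (right), with list medians as bars and genes that passed in red. No gene passed in R122C, and in WT Cdk1, Ezh2, Aurkb and Hes1 were higher and Gfi1b lower in IQ3pos.

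Of 18 factors that recruit MTG proteins, 12 were tested, and 1 fell and 0 rose between the WT fractions, where 1.42% of all genes fell. The gene was Gfi1b, a zinc finger repressor. It was listed at 0 in both R122C IQ3pos libraries, against 3.86 and 3.52 log2 CPM in R122C IQ3neg. In WT it was at 0 in all 3 IQ3pos libraries, against 3.67, 5.26 and 2.71 log2 CPM in IQ3neg (adjusted p = 0.0430). It was thus listed in all 5 IQ3neg libraries and in none of the 5 IQ3pos libraries, and 3.18% of the genes tested had all 5 IQ3pos under all 5 IQ3neg libraries. The difference between the R122C fractions did not pass (adjusted p = 0.256), and no fold is given against a listed 0. Gfi1b was tested through its IQ3neg values alone, with IQ3pos fixed at the floor, so its p-values are no further support for the difference. Gfi1b is known as a factor of tuft cells and of blood precursors and is itself one of the 10 tuft markers summed above, and the part of tuft cells in its values was not tested. The E proteins Tcf3 and Tcf4, which bind MTG proteins, differed by 0.34 ± 0.95 and -0.38 ± 0.71 between the WT fractions and did not pass.

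Of 23 genes reported in other tissues as bound or regulated by a RUNX factor, 16 were tested. Hes1 alone passed between the WT fractions, higher in IQ3pos, where 0.606% of all genes rose. Hes1, a repressor downstream of Notch, had 6.46 and 5.81 log2 CPM in R122C IQ3pos and 3.81 and 4.15 in R122C IQ3neg. It had 6.19, 5.499 and 5.96 log2 CPM in WT IQ3pos and 4.01, 3.91 and 2.94 in WT IQ3neg. The difference was 2.15 ± 0.60 in R122C (SE; adjusted p = 0.235) and 2.26 ± 0.49 in WT (adjusted p = 0.0389). All 5 IQ3pos libraries were above all 5 IQ3neg libraries, as for 5.74% of the genes tested.

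Cdkn1a, the cell cycle inhibitor p21 and a gene often reported as a RUNX3 target, did not pass in any of the 5 comparisons. It lay between 3.52 and 3.63 log2 CPM in R122C IQ3pos and between 5.83 and 6.42 in R122C IQ3neg, against 4.63 to 5.98 in WT IQ3pos and 6.38 to 7.35 in WT IQ3neg. Its difference between fractions was -2.55 ± 0.59 in R122C (adjusted p = 0.143) and -1.48 ± 0.48 in WT (adjusted p = 0.138). Between genotypes it was -1.66 ± 0.54 in IQ3pos (adjusted p = 0.631) and -0.58 ± 0.54 in IQ3neg (adjusted p = 1). The R122C IQ3pos libraries were thus the lowest of the 4 groups and lay under all WT IQ3pos libraries, as for 7.2% of the genes tested. Bcl2l11, the death gene Bim, averaged 1.53 log2 CPM in R122C IQ3pos, 2.85 in R122C IQ3neg, 1.04 in WT IQ3pos and 1.76 in WT IQ3neg, and did not pass.

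The WT calls of the 5 partner and target genes were close to the threshold. When each of the 6 WT libraries was left out in turn, Cdk1 passed in 4 of 6 fits, Aurkb and Ezh2 in 2 each, and Hes1 and Gfi1b in 1 each. Cdk1 lost the call without WT IQ3pos replicate 2 (adjusted p = 0.0970) or 3 (0.0708). Aurkb lost it without either of those (0.127 and 0.137), WT IQ3neg replicate 1 (0.0527) or replicate 2 (0.0558), and Ezh2 without any of the 3 WT IQ3pos libraries (0.0750, 0.0936 and 0.0552) or WT IQ3neg replicate 2 (0.0826). Hes1 passed without WT IQ3neg replicate 1 and Gfi1b without WT IQ3neg replicate 3, and neither passed in the other 5 fits (adjusted p from 0.0718 to 0.125 for Hes1 and from 0.0605 to 0.118 for Gfi1b). Leaving out any 1 of the 4 R122C libraries, which enter the fit through the shared estimate of spread, also ended the calls of Aurkb (adjusted p from 0.0562 to 0.0757), Hes1 (0.0518 to 0.0700) and Gfi1b (0.0517 to 0.0792). With only the WT libraries in the fit, none of the 5 passed (adjusted p from 0.106 to 0.174). The direction was the same in all of these fits.

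With the fractions compared over both genotypes at once, the alternative added after the data were seen, 10 genes of the 6 lists passed, where 1.67% of all genes rose in IQ3pos and 2.57% fell. Of the 17 modifiers, 4 rose and 0 fell. They were Cdk1 by 3.14 ± 0.53 (SE; adjusted p = 0.00739), Aurkb by 3.32 ± 0.68 (0.0194), Ezh2 by 2.16 ± 0.48 (0.0275) and the cell cycle kinase Cdk6 by 1.24 ± 0.30 (0.0387). Cdk6 lay at 7.04 to 7.09 log2 CPM in R122C IQ3pos and 5.53 to 6.26 in R122C IQ3neg, and at 7.25 to 7.39 in WT IQ3pos and 5.42 to 6.40 in WT IQ3neg.

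Of the 12 tested MTG partners, 2 fell and 0 rose over both genotypes. They were Gfi1b (adjusted p = 0.011) and Neurod1 (adjusted p = 0.018), a factor of neuroendocrine cells that is also one of the 12 enteroendocrine markers summed above. Neurod1 was listed at 0 in all 5 IQ3pos libraries, against 2.40 and 3.39 log2 CPM in R122C IQ3neg and 1.67 to 2.89 in WT IQ3neg. Both genes were thus tested through IQ3neg alone, with no spread in IQ3pos, so their p-values depend on the floor and are no further support. Of the 16 tested targets, 2 rose and 2 fell. Hes1 rose by 2.21 ± 0.39 (SE; adjusted p = 0.00947) and the Notch ligand Jag1 by 1.48 ± 0.33 (0.0299), while the differences were -2.02 ± 0.38 for Cdkn1a (0.0129) and -1.33 ± 0.32 for Spp1, the secreted phosphoprotein osteopontin (0.0362). Jag1 lay at 6.60 to 6.93 log2 CPM in R122C IQ3pos and 5.26 to 5.62 in R122C IQ3neg, and at 6.54 to 7.35 in WT IQ3pos and 4.80 to 6.02 in WT IQ3neg. Spp1 lay at 10.76 to 11.67 log2 CPM in R122C IQ3pos and 12.52 to 12.72 in R122C IQ3neg, and at 11.01 to 11.39 in WT IQ3pos and 12.15 to 12.85 in WT IQ3neg. For Cdk6 and Jag1 all 5 IQ3pos libraries thus lay over all 5 IQ3neg libraries, as for 5.74% of the genes tested. For Spp1 they lay under them, as for 3.18%. The 3 genes are named because they passed on these same libraries, so the separation is no further support.

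These calls also depended on single libraries. When each of the 10 libraries was left out in turn, Cdk1, Hes1 and Neurod1 passed in 8 fits each, Cdkn1a and Gfi1b in 7 each, Aurkb in 5, Ezh2 in 4, Cdk6 in 3, and Jag1 and Spp1 in 2 each, with the same sign throughout. Leaving out R122C IQ3pos replicate 1 ended all 10 calls (adjusted p from 0.0522 for Cdk1 to 0.203 for Spp1). R122C IQ3pos replicate 2 ended all but those of Cdk1 and Hes1 (0.0546 for Gfi1b to 0.140 for Cdk6), and R122C IQ3neg replicate 1 all but that of Neurod1 (0.0524 for Gfi1b to 0.179 for Cdk6). R122C IQ3neg replicate 2 ended those of Aurkb, Jag1 and Spp1 (0.0622, 0.0589 and 0.0579). WT IQ3pos replicate 2 ended those of Aurkb, Cdk6, Ezh2, Jag1 and Spp1 (0.0504 to 0.120), and WT IQ3pos replicate 1 and WT IQ3neg replicate 2 each those of Cdk6, Ezh2, Jag1 and Spp1 (0.0540 to 0.0899). WT IQ3pos replicate 3 ended those of Cdk6, Jag1 and Spp1 (0.0667 to 0.107). With no filter on low values Aurkb, Cdk6 and Spp1 did not pass (0.0509, 0.0521 and 0.0621), nor did Cdk6, Jag1 and Spp1 without the intensity trend (0.0762, 0.0549 and 0.0555).

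No gene of the other 3 lists passed between fractions, in either genotype or over both. They were 17 corepressors, 12 tested of 14 coactivators with the YAP and TEAD genes, and 14 tested of 16 SMAD, TGF-beta receptor and WNT effectors. Their median differences between the WT fractions were 0.11, -0.20 and 0.38, beside 0.16 for all genes tested. The Groucho corepressors Tle1 and Tle2 differed by -1.23 ± 1.21 and -1.90 ± 0.78 between the WT fractions, and the acetyltransferases Ep300 and Crebbp by -1.28 ± 1.005 and -0.30 ± 0.40. The SMAD proteins that carry BMP and TGF-beta signals differed by -0.71 ± 0.94 (Smad1) and 0.62 ± 0.68 (Smad2).

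Between genotypes no gene of the 6 lists passed in either fraction. Smad1 had 5.60 and 5.76 log2 CPM in R122C IQ3pos and 0.89, 4.48 and 4.57 in WT IQ3pos, a difference of 2.37 ± 1.05 (SE; adjusted p = 0.911) that was 1.16 without WT IQ3pos replicate 1. Ep300 was listed at 0 in both R122C IQ3neg libraries and averaged 2.68 log2 CPM in WT IQ3neg (adjusted p = 1). With 2 R122C libraries per fraction, the 95% intervals of the member differences between genotypes were 1.71 to 5.23 log2 units wide. The narrowest were those of Runx3, whose R122C values were all listed at 0, and are no measure of precision.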

How the data were processed

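RNA from pools of sorted corpus cells was amplified by PCR, prepared and sequenced at BGI, per the labels' protocols. The tools named are STAR 2.7.1a, featureCounts, Subread 2.0.0 and edgeR, and the build is GRCm38, per the submitters' processing notes. The labels do not give strandedness. The authors deposited log2 CPM values, without a pseudocount and with genes under 1 CPM listed at 0. The steps between values gave whole reads, within 0.05 read for 100% of the values, and so the total to which each library was scaled. Listed CPM summed to 1036666 to 1053761 per library, above the base of the unit, for a reason not given.

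Groups came from the labels. Limma 3.58.1 in R 4.3.3 fitted 4 group means with an intensity trend to all 10 libraries, for the 17155 genes above 0 in at least 2 libraries, with two-sided tests and Benjamini-Hochberg adjustment over all of them at 0.05. Replicates are pools of mice, and the p-values cover the spread among pools. The main fit did not pair the same-numbered fractions, which may come from the same pool. RPKM was computed from the CPM and the exon union of GENCODE M21. The members, lists and named genes were chosen with earlier results of these data known. List genes are named where they passed, together with the first 2 of each list that did not. The scripts were tested on simulated data.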

Additional observations from a re-analysis of the deposited data

How the results depend on the processing

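None of the 30 tests of members passed under any of 555 alternative values, with a lowest adjusted p of 0.0706, for Runx3 between the WT fractions. That gene was listed in WT IQ3neg alone, so this value depends on the floor. The number of members called was 0 throughout. Of all genes, 55 were called between the R122C fractions, and 87 with libraries centred on their median, 146 without the intensity trend, 0 with only the groups compared, 31 with the replicate block, 105 without the WT pair numbered 1, 727 averaged over genotypes, and 2 to 73 with 1 library left out. Between the WT fractions 348 were called, and 898 when centred, 191 with no filter, 600 with the filter at 5 libraries, 34 with only the groups compared, 727 when averaged and 79 to 455 with 1 library left out. The replicate block gave 364 there, 189 higher and 175 lower. Between genotypes in IQ3pos, 0 became 2 when centred, 1 with the filter at 5 libraries, 7 without the trend, 2 without the WT pair, 18 averaged over fractions and 0 to 2 with 1 library left out. In IQ3neg 0 became 4 with no filter and 18 when averaged, and in the interaction 2 without the WT pair. The cause of these shifts was not tested.

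Same-numbered fractions of 1 genotype share a title code and a number of pooled mice, but the labels do not say that they came from the same mice. They deviated together with correlations of 0.105 (R122C) and 0.162, 0.115 and 0.081 (WT), not all over 0.1. The numbers were therefore not taken to pair libraries, although every library correlated best with its own number. This limit does not settle the pairing, which the main fit leaves out and the replicate block takes in. The block changed no member's call. It ended the calls of Hes1 (adjusted p = 0.0540) and Gfi1b (0.0608). Without the WT pair numbered 1, Hes1 (0.0610), Ezh2 (0.0789) and Gfi1b (0.0917) did not pass, nor with no filter Hes1 (0.0501), Cdk1 (0.0643), Gfi1b (0.0757) and Aurkb (0.0885), nor without the trend Aurkb (0.0524).

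Some differences changed sign, all without a call before or after. Centred, Cbfb between genotypes in IQ3neg was -0.033 and the Runx1t1 interaction 0.065. Without the WT pair these were -0.34 and 0.26, Runx1 in IQ3neg was -0.028, and the interactions of Runx1 and Cbfa2t3 were 0.33 and 0.80. Averaged, Cbfb between the R122C fractions was -0.02, Cbfa2t2 between the WT fractions 0.12 and Cbfa2t2 between genotypes in IQ3neg 0.16. With 1 library left out, the fraction differences in WT ran from -1.21 to 0.58 for Runx1 and from -0.70 to 0.11 for Cbfa2t2. Those between genotypes in IQ3pos ran from -0.59 to 0.74 for Runx1 and from -1.75 to 0.43 for Cbfa2t3. In IQ3neg they ran from -0.028 to 1.77 for Runx1, from -0.34 to 0.25 for Cbfb, from -0.66 to 0.27 for Cbfa2t2 and from -1.41 to 0.56 for Cbfa2t3. The interactions ran from -1.72 to 0.11 for Runx1, from -0.48 to 0.32 for Runx1t1 and from -1.32 to 0.86 for Cbfa2t3. The fit with only the groups compared was not made for the interaction, which uses all groups.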
